A study of Arabidopsis thaliana with 24 samples.

Results

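The cytosolic ribosomal protein genes described here are 55 Arabidopsis thaliana nuclear genes of the small (40S) and large (60S) ribosomal subunits, picked by gene locus from a fixed list. No value entered this rule, but the genes were chosen with earlier results of these data known. All 55 were found among the 27826 transcripts of the expression table. Gene families were taken from RefSeq (assembly TAIR10.1) or from the study, which name the family of 30 genes in 16 families, 11 genes of the 40S and 19 of the 60S subunit. The other 25 genes are given by their locus or RefSeq symbol, with no family or role.

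The gnat2 plants carry an insertion in GNAT2 (AT1G32070, RefSeq symbol NSI), which encodes an acetyltransferase of the plastid, and the WT plants are of the same ecotype, Col-0. Only 1 mutant line was used. Plants of both genotypes were raised on soil for 4.5 weeks in days of 8 h at 120 µmol per square metre and second, 23 °C and 50% humidity. Beginning 2 h after the onset of light, they were kept for 2 h in darkness (D), in the growth light (C) or in high light (HL) of 1000 µmol in the same unit. Each of the 6 groups (gnat2 D, gnat2 C, gnat2 HL, WT D, WT C and WT HL) had 4 biological replicates, each on its own Affymetrix AraGene array. The question was how the transcripts respond to a sudden change of light, and whether the plastid acetyltransferase matters for that response.

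Cytosolic ribosomes translate the mRNAs of nuclear genes. In plants each ribosomal protein is encoded by a small family of near-identical genes, so that ribosomes can be built from different paralogues, and probes for one paralogue may also bind another. Making ribosomes takes a large share of the energy of a growing cell. In leaves the translation of these mRNAs is known to rise in the light and fall in the dark, in part through the kinase TOR, which acts on ribosomal protein S6 through the S6 kinases.

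The NSI transcript lay between 1.53 and 2.39 (log2 expression) on the 12 gnat2 arrays and between 5.31 and 6.30 on the 12 WT arrays. The array median was 2.35, and values below it were not shown to lie above background. The rosette leaf markers RBCS1A, RCA, CA1 and LHCB2.1 lay between 4.84 and 12.72 on all arrays. Of 10 markers of roots, seeds and dividing cells, all but PYK10 stayed at or below 2.45, and PYK10 ranged between 1.23 and 4.37. None of the 10 was called in any of the 4 light comparisons, and 1 of them, EXPA7, was higher in gnat2 than in WT under D (1.48 ± 0.09 in gnat2 and 1.05 ± 0.21 in WT, SD, n = 4 each).

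The ribosomal protein genes were for the most part bright: the mean value of 35 of them lay above the upper quartile of the arrays (4.79), and that of 6 lay below the array median. Those 6 were RPL12A, RPL12C, AT1G33120, AT2G40010, AT3G48960 and AT3G52580, and their changes are uncertain in size. All values are relative to a common distribution of the arrays, so that neither a change in total mRNA nor in the number of ribosomes can be read from them, and in whole leaves fewer cells of a type cannot be told apart from less RNA per cell.

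A single number per array describes the shared shift: for each gene the WT C mean was subtracted, and the median over the 55 genes was taken. In gnat2 this shift was -0.67, -0.38, -0.48 and -0.46 under D, 0.16, 0.17, 0.11 and 0.13 under C, and 0.70, 0.77, 0.67 and 0.74 under HL. In WT it was -0.49, -0.45, 0.02 and -0.26 under D, -0.00, -0.11, -0.03 and 0.11 under C, and 0.64, 0.61, 0.78 and 0.65 under HL. The 3 lights thus did not overlap in gnat2, while WT D replicate 3 lay among the C arrays. On that array 29 of the 55 genes were above their WT C mean, against 6 to 10 genes on the other 3 WT D arrays. The same median over all transcripts stayed between -0.03 and 0.00 on every array, but quantile normalization keeps it small whatever the treatment.

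**Figure D1:**
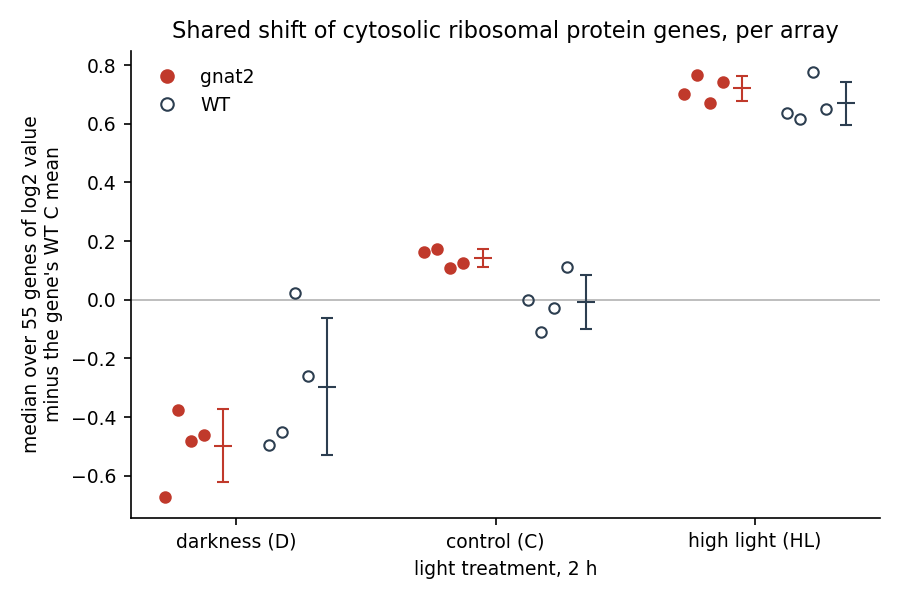
Shift of the 55 genes on each array (vertical axis, median over the genes of the log2 value minus the gene's WT C mean) by light treatment (horizontal axis), with gnat2 as filled and WT as open points; bars give the mean and SD of 4 arrays. The HL arrays of both genotypes lie between 0.61 and 0.78, and one WT D array, at 0.02, lies with the C arrays.

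After 2 h of HL the cytosolic ribosomal protein genes rose in both genotypes, by a median log2 fold change of 0.67 in gnat2 (1.59-fold) and 0.68 in WT (1.60-fold). In gnat2, 44 of 55 genes were higher at an adjusted p under 0.05 (limma, Benjamini-Hochberg over all 27826 transcripts) and 0 were lower, where 12.5% of all transcripts were called higher and 12.1% lower. In WT, 47 genes were higher and 0 lower, against 11.9% and 11.5% of all transcripts. The median over all transcripts was -0.01 in both genotypes, and that of the 6957 transcripts with mean values above the upper quartile was -0.08 in gnat2 and -0.06 in WT. Over 2-fold higher were 7 genes in gnat2 and 4 in WT, against 4.05% of all transcripts in gnat2 and 3.41% in WT. In 52 genes all HL arrays of gnat2 lay above all its C arrays, an arrangement found for 15.2% of all transcripts, and in WT this held for 41 genes, against 11.1%.

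Both subunits took part in the rise. Of the 11 annotated genes of the 40S subunit, 10 were higher under HL in gnat2 and 10 in WT, and the medians were 0.62 in gnat2 and 0.68 in WT. Of the 19 annotated genes of the 60S subunit, 17 were higher in gnat2 and 17 in WT, with medians of 0.71 and 0.74 on the log2 scale in gnat2 and in WT. The genotypes shared 41 called genes, 93.2% of the gnat2 calls and 87.2% of the WT calls. Called in gnat2 alone were RPL10B, RPL5B and RPS18A, and called in WT alone were RPL10A, RPL7B, RPSAA, PGY2, AT2G40010 and AT3G09200. Being called in 1 genotype is no test of a difference between them, and for RPL10A and RPSAA it depended on the processing. The 5 genes called in neither genotype were EMB2296, AT3G11250, AT3G11510, AT3G48960 and AT3G52580.

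**Figure D2:**
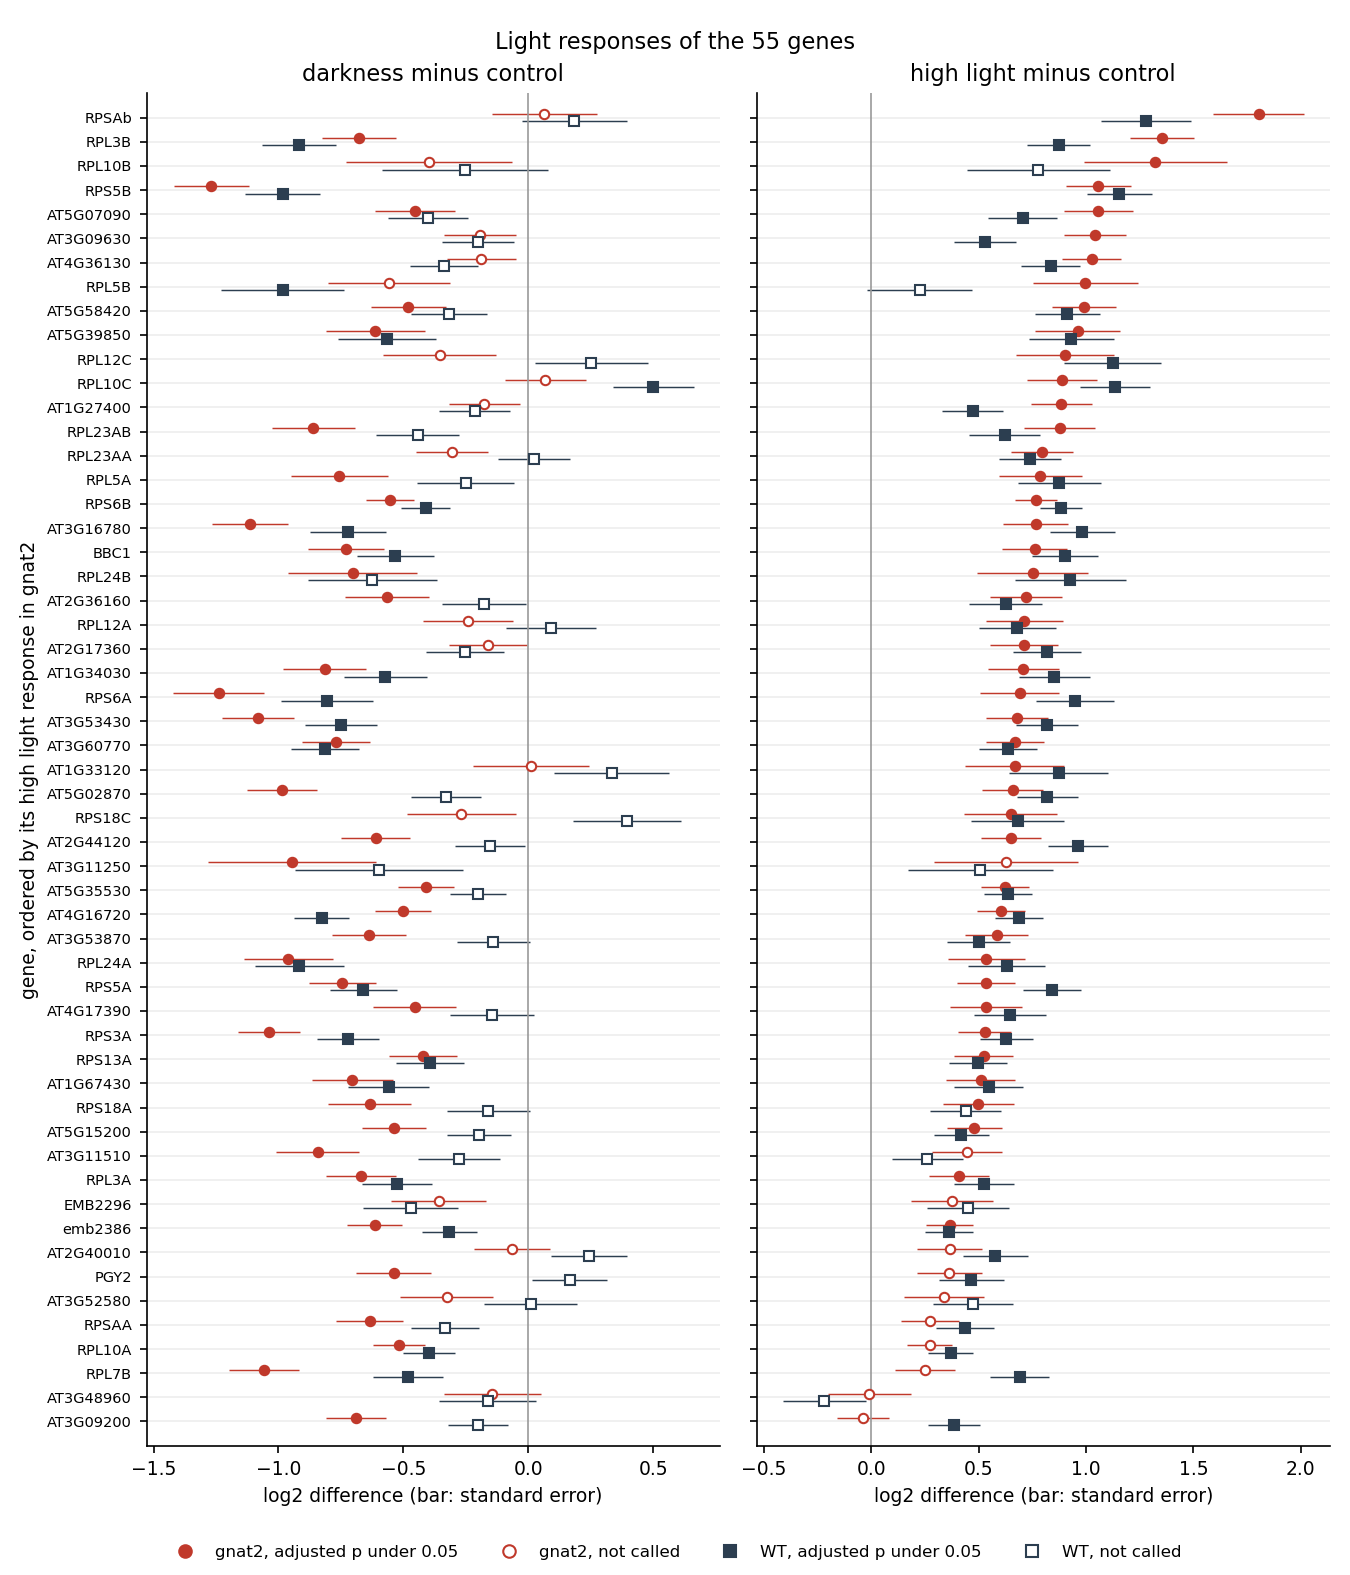
Response of each of the 55 genes (rows, ordered by the HL response in gnat2) to D (left) and HL (right) against C, as log2 difference with its standard error; circles are gnat2, squares are WT, and filled symbols have an adjusted p under 0.05. The HL responses lie mostly right of 0, with a median of 0.67 in gnat2 and 0.68 in WT, and the D responses mostly left of it, with medians of -0.56 in gnat2 and -0.33 in WT.

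Of all 55 genes, RPSAb of the small subunit had the largest rise in both genotypes. It belongs to the RPSa family, whose yeast counterpart is needed for the late maturation of the small subunit. In gnat2 RPSAb had 4.68, 4.80, 4.76 and 4.48 under HL, against 3.04, 2.84, 2.85 and 2.77 under C (log2 fold change 1.80, standard error [SE] 0.21, limma adjusted p = 2.59e-07). In WT it had 4.48, 4.84, 4.17 and 3.80 under HL, against 3.34, 3.08, 3.47 and 2.27 under C (log2 fold change 1.28, SE 0.21). The HL and C arrays did not overlap in either genotype, though they were more scattered in WT.

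RPS5B, one of the paralogues for S5, a protein of the small subunit, had the next largest rise in WT. It had 6.98, 6.93, 6.97 and 7.06 under HL in gnat2, against 5.80, 5.70, 6.04 and 6.17 under C. In WT the values were 6.58, 6.87, 6.81 and 6.95 under HL and 5.32, 5.53, 5.90 and 5.83 under C. These differences, 1.06 in gnat2 and 1.15 in WT (SE 0.15), were among those over 2-fold.

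RPS6A and RPS6B encode the S6 protein that the S6 kinases phosphorylate. For the RPS6A protein the study reported the opposite direction to the transcripts described here. It was lower after HL in both genotypes, and higher after D in gnat2 only. RPS6A had 8.57, 8.64, 8.70 and 8.76 under HL in gnat2, against 8.11, 7.89, 7.85 and 8.06 under C, a log2 fold change of 0.69. In WT the HL values of RPS6A were 8.38, 8.56, 8.61 and 8.50, against 7.69, 7.29, 7.50 and 7.78 under C, a log2 fold change of 0.95 (SE 0.18 in both genotypes). RPS6B rose by 0.77 in gnat2 and by 0.88 in WT (SE 0.10). Both paralogues were thus higher on every HL array than on any C array of the same genotype, and their ratio was not shown to change under HL (exact permutation p = 0.31 in gnat2 and p = 0.60 in WT).

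Among the proteins of the large subunit, RPL3B and RPL10B had the next largest rises in gnat2 and RPL10C in WT. L3 lies near the centre where peptide bonds are formed. RPL3B had 6.59, 6.19, 6.16 and 6.36 under HL in gnat2, against 5.0, 4.66, 5.19 and 5.03 under C (log2 fold change 1.35, SE 0.15). In WT it had 6.20, 6.20, 6.20 and 6.23 under HL, against 4.99, 5.34, 5.58 and 5.43 under C (log2 fold change 0.87). No HL array reached down to a C array in either genotype. Its paralogue RPL3A changed by 0.41 in gnat2 and 0.52 in WT, both called.

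RPL10B, which encodes a form of L10, a protein that joins the large subunit late in its assembly, was scattered more widely on the WT HL arrays than on those of gnat2. In gnat2 it had 4.52, 4.83, 4.87 and 4.83 under HL, against 3.54, 3.74, 3.18 and 3.31 under C (log2 fold change 1.32, SE 0.33). In WT it had 3.05, 5.21, 4.73 and 4.52 under HL and 3.34, 3.60, 3.70 and 3.75 under C, so that the groups overlapped through HL replicate 1 and the difference of 0.78 was not called. RPL10C had 7.08, 6.67, 7.21 and 6.89 under HL in WT, against 6.20, 5.71, 5.41 and 5.99 under C (log2 fold change 1.13, SE 0.16), with no overlap between the groups.

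After 2 h of D the genes were for the most part lower. Of the 55 genes, 38 were lower and 0 higher in gnat2, and 21 were lower and 1 higher in WT. The medians were -0.56 (0.676-fold) in gnat2 and -0.33 (0.796-fold) in WT. In these comparisons 14.5% of all transcripts were called lower in gnat2 and 13.1% in WT, and 13.3% and 12.7% were called higher in gnat2 and in WT. Over 2-fold lower were 6 genes in gnat2 and 0 in WT, against 4.22% and 3.83% of all transcripts in gnat2 and in WT. All D arrays lay below all C arrays in 41 genes in gnat2, against 16.4% of all transcripts, and in 15 genes in WT, against 10.4%. Without WT D replicate 3, 32 genes were lower in WT, the highest of the counts of 15 to 32 on leaving out 1 array at a time. That array stands out by the shift of these same genes, so this count is no further support. With only the arrays compared, 11 genes were lower in WT. The shares of all transcripts called in these settings are not given.

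Of the 40S genes, 9 of 11 were lower in gnat2 and 6 of 11 in WT, with medians of -0.63 in gnat2 and -0.39 in WT. Of the 60S genes, 12 of 19 were lower in gnat2 and 9 of 19 in WT, with medians of -0.61 in gnat2 and -0.40 in WT. The genotypes shared 20 called genes, all in the same direction, 52.6% of the gnat2 calls and 90.9% of the WT calls. The 6 dim genes were not called in D in either genotype, while of the 35 genes above the upper quartile 32 were lower in gnat2 and 17 in WT. The shares of all dim and of all bright transcripts called under D were not taken. Whether this contrast goes beyond the level of the signal was therefore not tested.

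RPS5B fell most in both genotypes. Under D it had 4.56, 4.82, 4.56 and 4.70 in gnat2, against 5.80, 5.70, 6.04 and 6.17 under C (log2 fold change -1.27, SE 0.15, limma adjusted p = 2.85e-07). In WT it had 4.77, 4.23, 5.04 and 4.62 under D, against 5.32, 5.53, 5.90 and 5.83 under C (log2 fold change -0.98, SE 0.15). Even WT D replicate 3, the array least changed over the 55 genes, was below every WT C array for this gene.

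RPS6A followed in gnat2, with 6.53, 7.0, 6.58 and 6.85 under D, against 8.11, 7.89, 7.85 and 8.06 under C (log2 fold change -1.24, SE 0.18). In WT it had 5.97, 6.89, 7.33 and 6.85 under D, against 7.69, 7.29, 7.50 and 7.78 under C (log2 fold change -0.81). WT D replicate 3 was above the lowest C array. RPS6B fell less, to 6.78, 7.05, 6.87 and 6.93 under D in gnat2, against 7.43, 7.48, 7.39 and 7.53 under C, a log2 fold change of -0.55, and by 0.41 in WT (SE 0.10). The ratio of RPS6A to RPS6B was lower under D by 0.69 on the log2 scale in gnat2, where no array overlapped, and by 0.39 in WT (exact permutation p = 0.029 in gnat2 and p = 0.23 in WT, adjusted p = 0.11 and p = 0.41 over the 64 ratios tested).

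The next largest fall in gnat2 was that of AT3G16780, a gene with no annotated family, by 1.11 on the log2 scale (5.21, 5.13, 5.03 and 4.88 under D, against 6.31, 6.26, 6.01 and 6.13 under C). In WT the places after RPS5B were held by RPL5B and RPL3B. L5 binds the 5S ribosomal RNA. RPL5B had 2.55, 2.21, 2.86 and 2.23 under D in WT, against 3.05, 4.31, 2.96 and 3.47 under C (log2 fold change -0.98, SE 0.25), values close to the array median. RPL3B had 3.98, 4.61, 4.48 and 4.59 under D in WT, against 4.99, 5.34, 5.58 and 5.43 under C (log2 fold change -0.92, SE 0.15). In both genes no WT D array reached a WT C array.

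The only gene that was higher under D was RPL10C in WT, with 6.18, 6.03, 6.54 and 6.56 under D, against 6.20, 5.71, 5.41 and 5.99 under C (log2 fold change 0.50, SE 0.16, limma adjusted p = 0.023). The groups overlapped, and in gnat2 the difference was 0.07, with 6.48, 6.26, 6.63 and 6.34 under D and 6.12, 6.50, 6.53 and 6.32 under C. The call in WT was lost without WT D replicate 3 or 4 (limma adjusted p = 0.077 and adjusted p = 0.085) and without WT C replicate 2 or 3 (limma adjusted p = 0.064 and adjusted p = 0.12), and also with only the arrays compared (limma adjusted p = 0.11).

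Paralogues of one annotated family can be set against each other on the same array through their ratio. Only genes with an annotated family could enter, so any paralogues among the other 25 genes are left out. A departure from a family could change if they were added. The 12 families with more than 1 gene gave 16 ratios and, over the 4 light comparisons, 64 exact permutation tests of 4 arrays against 4, in which the smallest possible p is 0.0286. In 17 tests the p was 0.0286, 7 of them for HL and 7 for D in gnat2, and 1 for HL and 2 for D in WT. After adjustment over the 64 tests 0 passed, since the smallest adjusted p was 0.11. A gene was taken to depart from its family where its response differed from the mean of the others by more than 0.5 (log2), in the same light and direction in both genotypes. Such genes were found in the RPSa, RPL10 and RPS3 families. This rule picked them from the same arrays, so the unadjusted p values given below for their ratios are descriptions and no further support. AT3G53430 of the RPL12 family also met this rule, but only against RPL12A and RPL12C, whose values near the floor of the arrays leave little room for a fall, so nothing is read from it. The paralogues share much of their sequence, and binding of one transcript to the probes of another was not tested.

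In the RPSa family RPSAA was the less responsive gene under HL. It had 7.93, 7.91, 7.84 and 7.97 under HL in gnat2, against 7.69, 7.63, 7.57 and 7.67 under C, a log2 fold change of 0.27 that was not called, and in WT it rose by 0.44 (SE 0.14). In gnat2 it was called with array weights, cyclic loess and only the arrays compared (limma adjusted p = 0.040, adjusted p = 0.047 and adjusted p = 0.025). The log2 ratio of RPSAA to RPSAb was lower under HL than under C by 1.53 in gnat2 and by 0.84 in WT (exact permutation p = 0.029 and p = 0.057). Under D the changes of the pair were again unlike. However, RPSAb lay close to the array median (2.35) under D and C, so a fall of this gene may not be measurable. RPSAA had 6.96, 7.25, 6.94 and 6.87 under D in gnat2, against 7.69, 7.63, 7.57 and 7.67 under C, whereas RPSAb had 2.78, 2.75, 3.24 and 3.00 under D and 3.04, 2.84, 2.85 and 2.77 under C. In gnat2 RPSAA was lower (log2 fold change -0.63) and RPSAb was not called (0.06). Neither gene was called under D in WT, where the log2 fold change of RPSAA was -0.33. RPSAA was called there with the intensity trend, with both filters on low values and without WT D replicate 3. The ratio was lower by 0.70 in gnat2 and 0.52 in WT (exact permutation p = 0.029 and p = 0.11).

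In the RPL10 family the paralogue RPL10A, known in Arabidopsis from an antiviral signalling pathway, was the least changed under HL. It had 8.48, 8.64, 8.62 and 8.56 under HL in gnat2, against 8.35, 8.29, 8.29 and 8.29 under C, a log2 fold change of 0.27 that was not called (limma adjusted p = 0.061), although the groups did not overlap. It was called in gnat2 with the replicate block, the unmoderated test, the intensity trend, array weights, both filters on low values, cyclic loess, scaling to bright transcripts and only the arrays compared (limma adjusted p between 0.0050 and 0.045). In WT it rose by 0.37 (SE 0.10), a call lost with only the arrays compared (limma adjusted p = 0.066). The ratio of RPL10A to RPL10C was lower under HL by 0.62 in gnat2 and 0.76 in WT, and it was also lower under D, by 0.59 in gnat2 and 0.90 in WT (exact permutation p = 0.029 in all 4, and p = 0.057 for D in WT with cyclic loess). RPL10A fell under D by 0.52 in gnat2 and by 0.40 in WT, so that of this pair RPL10A alone was lower under D. The 2 treatments share their C arrays, and the ratio under C enters both differences.

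In the RPL12 family, which encodes a protein at the base of the stalk where translation factors bind, the bright gene AT3G53430 fell under D. The dim genes RPL12A and RPL12C were not called, and at their level a fall may not be measurable. AT3G53430 had 5.17, 5.46, 5.09 and 5.54 under D in gnat2, against 6.25, 6.63, 6.30 and 6.41 under C (log2 fold change -1.08, SE 0.14). In WT it fell by 0.75, with 5.31, 5.55, 5.51 and 5.72 under D and 6.59, 5.87, 6.06 and 6.55 under C. RPL12A lay between 1.04 and 2.35 under D and between 1.44 and 2.01 under C over both genotypes, at or below the array median. Under HL all 3 genes were higher in both genotypes, RPL12C by 0.90 in gnat2 and 1.12 in WT.

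In the RPS3 family both annotated genes had like HL responses (RPS3A 0.53 in gnat2 and 0.63 in WT, AT5G35530 0.62 in gnat2 and 0.64 in WT) but unlike D responses. S3 lies at the entry of the mRNA channel of the small subunit. RPS3A had 5.36, 5.72, 5.65 and 5.70 under D in gnat2, against 6.70, 6.80, 6.35 and 6.73 under C (log2 fold change -1.04, SE 0.12), and it fell by 0.72 in WT. AT5G35530 fell by 0.41 in gnat2 (SE 0.11), where it had 6.56, 6.84, 6.78 and 6.69 under D and 7.20, 7.07, 7.14 and 7.11 under C, and was not called in WT (-0.20). With cyclic loess the call in gnat2 was lost (log2 fold change -0.28, limma adjusted p = 0.060). The ratio of RPS3A to AT5G35530 was lower under D by 0.63 in gnat2 and by 0.52 in WT, with no overlap between arrays in either genotype (exact permutation p = 0.029 in both).

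**Figure D3:**
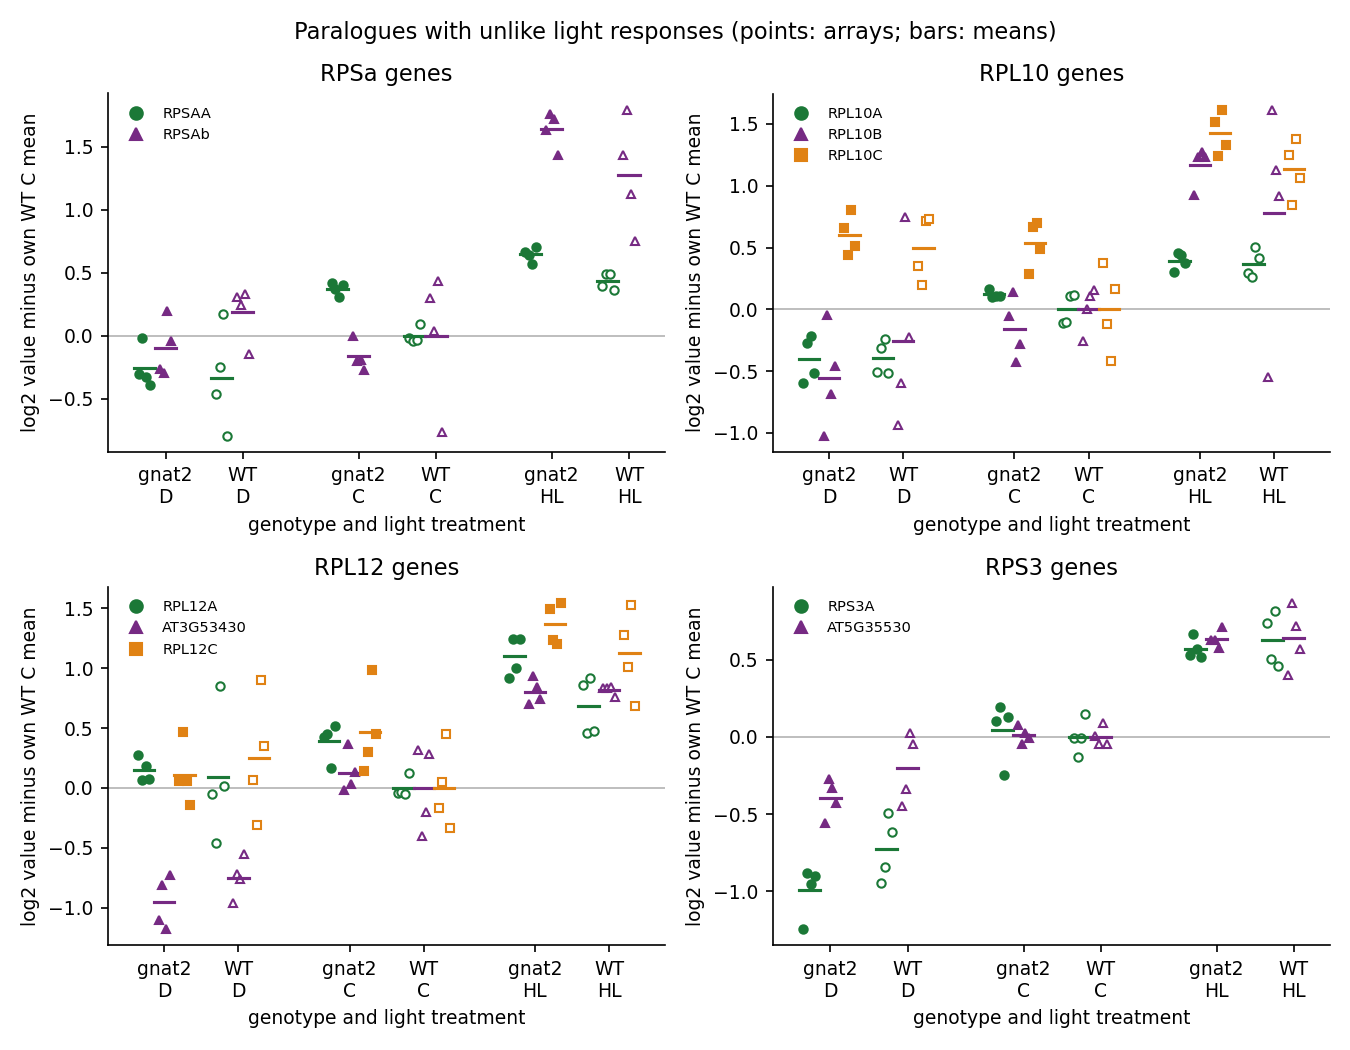
Log2 values of the genes of 4 families on each array, each gene relative to its own WT C mean (vertical axis), by genotype and light (horizontal axis); filled symbols are gnat2, open symbols WT, and short bars the means of 4 arrays. RPSAb rises above RPSAA under HL, RPL10C stays above RPL10A in all of gnat2 and under HL and D in WT, and RPS3A falls below AT5G35530 under D. RPL12A and RPL12C lie below the array median under D and C, so their distance from AT3G53430 under D is not a measured difference between paralogues.

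Few ribosomal protein genes were called between the genotypes. Under C 0 of 55 genes were higher in gnat2 and 2 were lower, where 0.708% of all transcripts were higher and 0.589% lower, and the median difference was 0.13. At an unadjusted p under 0.05, 10 genes were higher and 3 lower under C, against 7.61% and 7.95% of all transcripts. Under HL 0 genes were called in either direction by limma, against 0.934% of all transcripts called higher and 0.981% called lower. At an unadjusted p under 0.05, 4 genes were higher and 0 lower under HL, against 6.84% and 8.06%, and the unmoderated test also called 0 after adjustment. Under D 1 gene was higher and 7 were lower in gnat2 than in WT, against 2.03% and 1.89% of all transcripts, and the median was -0.13. At an unadjusted p under 0.05, 2 were higher and 13 lower under D, against 9.14% and 9.7%. Over 2-fold no gene differed in any light, where 0.119% of all transcripts were higher and 0.0323% lower under C, 0.155% and 0.0216% under HL, and 0.234% and 0.0575% under D.

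The lower genes under C were AT3G09630 and AT1G27400, both without an annotated family. AT3G09630 had 3.78, 3.11, 3.56 and 3.57 in gnat2 under C, against 3.84, 4.53, 3.96 and 4.08 in WT (log2 fold change -0.60, SE 0.14, limma adjusted p = 0.038). AT1G27400 had 3.91, 4.00, 3.82 and 3.66 in gnat2, against 4.80, 4.20, 4.21 and 4.44 in WT (log2 fold change -0.56, adjusted p = 0.048). Neither gene overlapped between the genotypes, and both were again lower in gnat2 under D, by 0.59 and 0.52, but not called under HL (-0.09 and -0.15). Under C 0 genes were called without gnat2 C replicate 2, 3 or 4 or WT C replicate 2 or 4. Only 1 was called without gnat2 C replicate 1, gnat2 D replicate 1, 2 or 3, any gnat2 HL replicate, or WT HL replicate 1 or 3.

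Under D the 5 genes with the smallest p were AT3G09630, AT3G53870, RPS18A, AT3G11510 and AT4G16720. RPS18A encodes S18 of the small subunit, and its loss in Arabidopsis gives pointed first leaves. It had 5.77, 6.40, 6.15 and 5.95 in gnat2 under D, against 6.56, 6.46, 7.19 and 6.75 in WT (log2 fold change -0.67, SE 0.17, limma adjusted p = 0.023). AT3G53870 had 5.18, 5.35, 5.13 and 5.30 in gnat2, against 5.75, 5.63, 6.07 and 5.92 in WT (-0.60). In both genes the genotypes did not overlap, and WT D replicate 3 was the highest.

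AT3G11510 had 6.46, 7.0, 6.33 and 6.53 in gnat2 under D and 7.39, 6.83, 7.81 and 6.89 in WT (-0.65), with some overlap. AT4G16720 was the gene that went the other way, with 7.04, 7.43, 7.46 and 7.52 in gnat2 under D and 6.87, 6.94, 7.21 and 6.68 in WT (log2 fold change 0.43, adjusted p = 0.029), and it too overlapped. The other 3 lower genes were RPL23AA, RPL23AB and AT1G27400. Without WT D replicate 3, 2 genes were higher and 1 was lower under D, and the median difference was 0.00. Leaving out other D arrays also cut the 8 calls, to 1 without gnat2 D replicate 1 or 4, to 3 without gnat2 D replicate 3 or WT D replicate 4, and to 5 without WT D replicate 1.

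**Figure D4:**
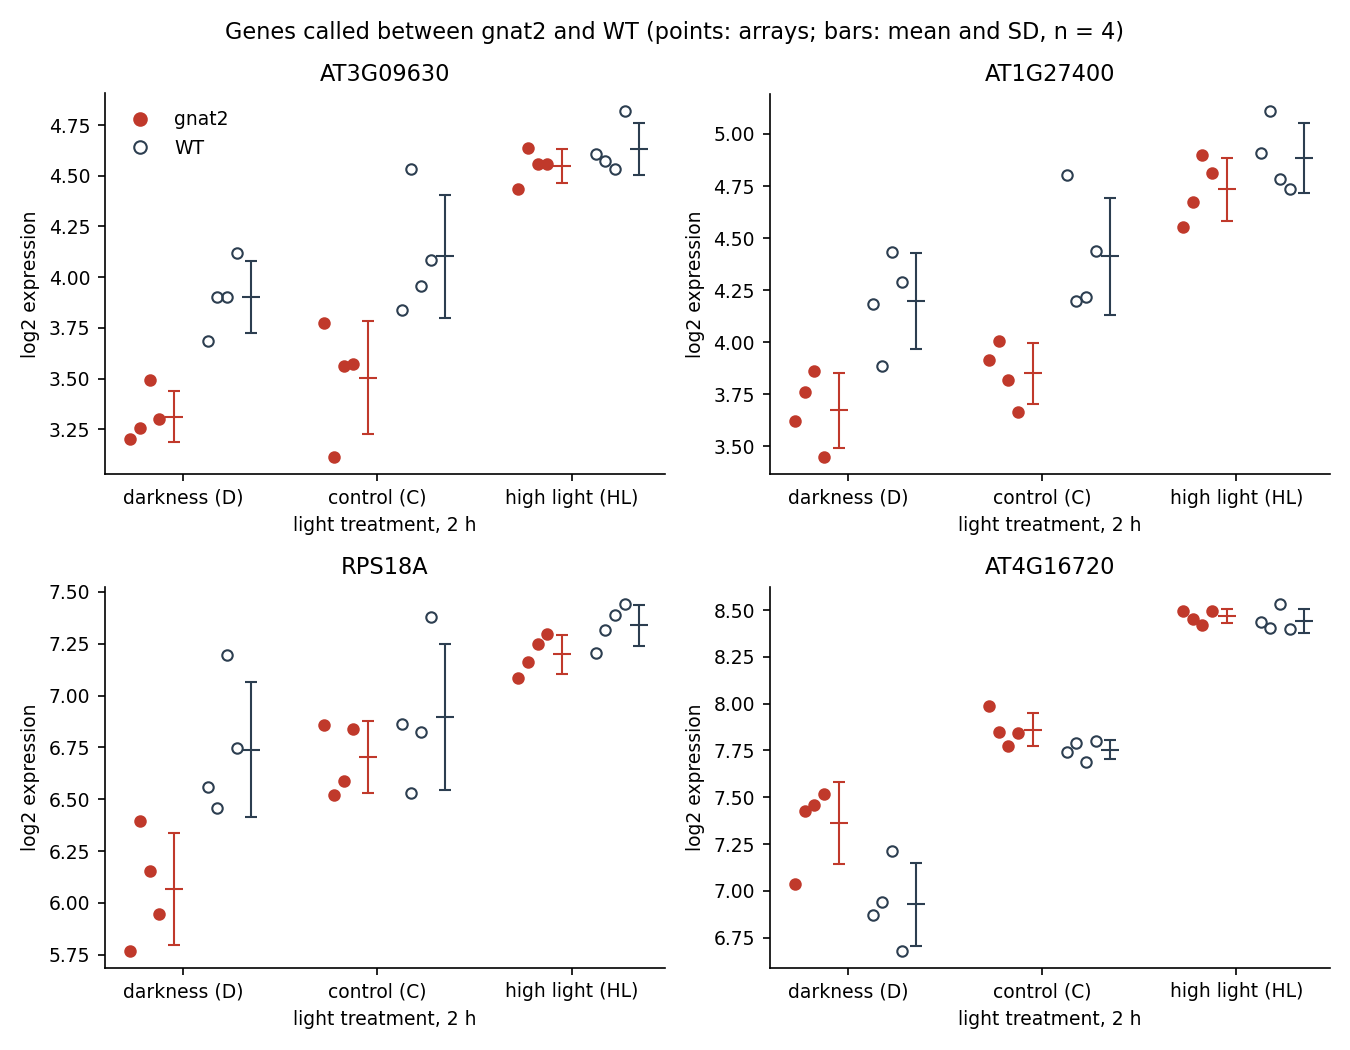
Log2 expression (vertical axis) of 4 genes called between gnat2 (filled) and WT (open) under C or D, on each array, by light treatment (horizontal axis); bars give the mean and SD of 4 arrays. AT3G09630 and AT1G27400 are lower in gnat2 under D and C and meet WT under HL, RPS18A is lower under D, and AT4G16720 is higher under D.

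The light responses themselves were compared between the genotypes as a difference of differences. For HL 0 of 55 genes were called and 3 transcripts were called higher in the whole table (0.0108%), and for D 0 of 55 genes were called, against 5 transcripts called higher (0.018%) and 3 called lower (0.0108%). At an unadjusted p under 0.05, 3 genes were higher and 2 lower for HL, against 3.07% and 3.11% of all transcripts, and 1 was higher and 8 were lower for D, against 3.8% and 3.73%. The unmoderated test called 0 genes in both. The D response was lower in gnat2 than in WT in 45 of the 55 genes, where 50.4% of all transcripts were so arranged, and its median difference was -0.30. Without WT D replicate 3 that median was -0.13. The largest such differences by p were those of PGY2 (-0.71) and AT5G02870 (-0.66). PGY2 had 6.07, 6.71, 6.15 and 6.23 under D in gnat2 and 6.91, 6.78, 6.74 and 6.88 under C, and in WT it had 6.62, 6.55, 7.26 and 6.66 under D and 6.69, 6.61, 6.24 and 6.88 under C. They did not pass the adjustment within the comparison (adjusted p = 0.37 for both).

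Across the 55 genes the responses of gnat2 and WT to HL had a Pearson r of 0.65 and a Spearman rho of 0.65, and those to D an r of 0.73 and a rho of 0.70. These are descriptions over genes, which are not independent replicates, and the genotypes share no arrays in them. The D response was more negative in genes with a higher mean value (Spearman rho -0.41 in gnat2 and -0.26 in WT). Genes near the floor of the arrays have little room for a fall. The D medians of the 6 genes below the array median were -0.19 in gnat2 and 0.17 in WT. Whether this order goes beyond that limit was not tested. For HL the rho was of like size, -0.45 in gnat2 and -0.20 in WT, so that the rise tended to be smaller in genes with a higher mean value. The Pearson r for HL was -0.33 in gnat2 and -0.07 in WT. By class of level, however, the HL medians were highest in the middle class in both genotypes. The HL medians of the 6 genes below the array median, the 14 between and the 35 above the upper quartile were 0.52, 0.92 and 0.58 in gnat2 and 0.63, 0.74 and 0.64 in WT. The spread among replicates was wider in WT, where the median SD of the genes was 0.33 under D, 0.24 under C and 0.17 under HL, than in gnat2, where it was 0.18, 0.14 and 0.10 in the same order. Over all transcripts the median SD was 0.235, 0.222 and 0.209 in WT in this order. In gnat2 it was 0.169, 0.158 and 0.148, so that a wider spread in WT was not particular to these genes.

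Other genes of the translation machinery were listed for comparison, and their counts are to be read against the shares of all transcripts called under HL (12.5% higher and 12.1% lower in gnat2, 11.9% and 11.5% in WT) and under D (13.3% higher and 14.5% lower in gnat2, 12.7% and 13.1% in WT). Of 14 further cytosolic ribosomal protein genes that RefSeq names, 12 were higher under HL in gnat2 and 8 in WT, with medians of 0.64 and 0.54 in gnat2 and in WT. Under D 6 of them were lower and 1 was higher in each genotype. RPL18AA was the higher one, with a log2 fold change of 0.99 in gnat2 and 0.90 in WT. Under HL the largest response in gnat2 was that of RPS15AD, which rose by 1.10 in gnat2 and by 0.84 in WT, and the largest in WT was that of RPS15, by 0.53 in gnat2 and by 0.99 in WT.

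The 3 RACK1 genes, whose protein is a scaffold on the small subunit, were all higher under HL and all lower under D in both genotypes. RACK1C_AT rose by 1.01 in gnat2 and by 1.02 in WT under HL, and under D it fell by 1.62 in gnat2 and by 0.94 in WT. The 5 nucleolar genes, which serve the processing and modification of ribosomal RNA, were all higher under HL, with medians of 1.37 in gnat2 and 1.77 in WT, and 4 of the 5 were lower under D in each genotype. FIB2, a fibrillarin, rose by 2.16 in gnat2 and by 2.31 in WT under HL. Of 28 translation initiation factors, 19 were higher under HL in gnat2 and 18 in WT, and 8 were lower under D in gnat2 and 7 in WT. EIF2 ALPHA, a subunit of the factor that brings the initiator tRNA, rose by 0.82 in gnat2 and by 1.27 in WT under HL.

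Of the 7 genes of the TOR complex and the S6 kinases, PK1 and S6K2, both S6 kinases, were the 2 genes higher under HL in both genotypes. PK1 rose by 0.99 in gnat2 and by 0.96 in WT, and S6K2 by 0.86 in gnat2 and by 1.03 in WT. The mean of S6K2 under C was 1.57 in gnat2 and 1.65 in WT, below the array median, so that the size of its rise is uncertain. Under D RAPTOR2, a partner of TOR that recruits its substrates, fell by 1.24 in gnat2 and by 1.63 in WT, and TOR itself was higher by 0.56 in both. The plastid ribosomal proteins, which are encoded in the nucleus and work in the chloroplast, had HL medians of -0.27 in gnat2 and -0.12 in WT. Of 17 such genes, 1 was higher and 6 were lower under HL in gnat2, and 1 was higher and 1 lower in WT. The higher one, RPL3P, rose by 1.04 in gnat2 and by 1.20 in WT. Under D 8 of the 17 were lower in gnat2 and 2 in WT. In WT 1 of 17 lower under HL and 2 of 17 lower under D do not exceed the shares of all transcripts, 11.5% and 13.1%.

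**Figure D5:**
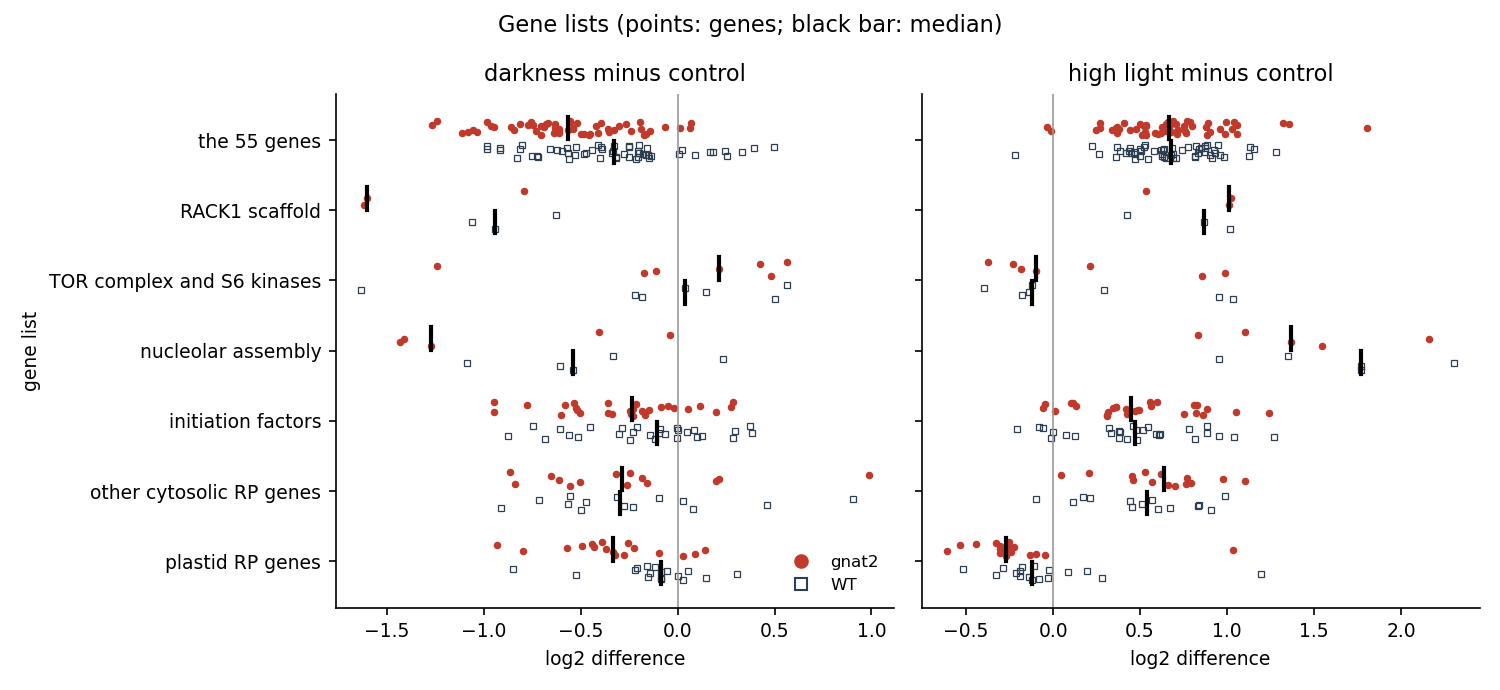
Log2 difference to C (horizontal axis) of each gene in 7 lists (rows), for D (left) and HL (right), with gnat2 as filled circles above WT as open squares; black bars are medians. The medians of the 55 genes under HL are 0.67 in gnat2 and 0.68 in WT, those of the nucleolar genes 1.37 in gnat2 and 1.77 in WT, and those of the plastid ribosomal protein (RP) genes -0.27 in gnat2 and -0.12 in WT.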

How the data were processed

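The authors extracted RNA from ground plants, hybridized it to AraGene arrays, assigned the probes to TAIR gene definitions, and applied RMA background correction and quantile normalization. The deposited table holds log2 expression values for 27826 transcripts on 24 arrays, with 0 missing values, and was used as deposited. Precision is limited by the few arrays per group, and quantile normalization hides any change common to most transcripts. In R 4.3.3, limma 3.58.1 was fitted with 1 mean per group over all arrays (18 residual degrees of freedom), with Benjamini-Hochberg adjustment over all transcripts within each of 9 comparisons. Calls required an adjusted p under 0.05, whatever the fold change. Ratios of paralogues were tested by two-sided exact permutation of arrays. The fit was tested on simulated data.

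Genes named are the 3 largest called rises and falls per light comparison, up to 5 called genes per genotype comparison by p, the paralogues departing from their family, RPS6A and RPS6B, and the list genes with the largest response; others were chosen after their values were seen. The genes and lists were chosen with earlier results of these data known. Plastid ribosomal proteins and initiation factors were picked by RefSeq text, and list members RefSeq does not name were left out. Alternatives were a replicate block, an unmoderated test (the methods name a one-way ANOVA), an intensity trend, array weights, filters on low values, 3 normalizations, only the arrays compared, a 2-fold limit, adjustment over all comparisons, and leaving out each array. Proteome and acetylome data of the study were not used here.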

Additional observations from a re-analysis of the deposited data

Results flagged for a closer look

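In groups of 4 arrays, an array was marked where its gap to the nearest of the others was too large a share of the range of the group by Dixon's criterion. Among 126 groups of named genes and of the shared shift, 6 arrays were marked, and chance marks about 1 group in 20. AT3G16780 was 4.45 on WT D replicate 1, against 5.27 to 5.41 on the other 3. AT3G53430 was 7.03 on WT HL replicate 4, against 7.10 to 7.11. RPL10A was 8.35 on gnat2 C replicate 1, against 8.29 on the others. RPL10B was 4.52 on gnat2 HL replicate 1, against 4.83 to 4.87. RPL3B was 6.23 on WT HL replicate 4, against 6.20 on the others. RPL5B was 3.66 on gnat2 C replicate 2, against 2.66 to 2.76. Of these arrays, those of AT3G53430, RPL10A and RPL3B differ from the rest of their group by less than 0.1 on the log2 scale. WT D replicate 3, which decides several counts, was not marked by this measure for the shared shift. In none of the named genes did all arrays of gnat2 move one way with light and all arrays of WT the other.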

How the results depend on the processing

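Under array weights, cyclic loess and scaling to bright transcripts, the medians of the 55 genes kept their direction in all 9 comparisons. They also stayed within the replicate spread (SD 0.121). The replicate block could not change these medians, since every group holds each replicate number once. Subtracting the array median could hardly change them after quantile normalization. Leaving out 1 array at a time, the HL counts stayed at 38 to 46 in gnat2 and 41 to 49 in WT, and the D counts at 31 to 39 in gnat2 and 16 to 32 in WT. The count of 2 between the genotypes under C ran from 0 to 2, and that of 8 under D from 1 to 9. The median under D ran from -0.23 to 0.0033 (the highest without WT D replicate 3), that of the difference of D responses from -0.34 to -0.13, and that of the difference of HL responses from -0.10 to 0.0011 (above 0 without WT C replicate 2). A limit of 2-fold left 7 and 4 genes under HL in gnat2 and WT, 6 and 0 under D in gnat2 and WT, and 0 between the genotypes under C and D. With only the arrays compared, 11 genes were called under D in WT, and 0 between the genotypes under C and under D. The count between the genotypes under C was 1 with the unmoderated test, array weights and cyclic loess, 0 with the intensity trend and 0 among the 35 genes above the upper quartile. Cyclic loess gave 5 under D between the genotypes. Adjustment over all comparisons gave 4 under C between the genotypes, 2 higher and 2 lower, and 2, both lower, for the difference of D responses. Apart from the 2-fold limit, the shares of all transcripts called under these alternatives were not taken. Their counts can thus not be set against a background.

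With the replicate number as a block, the count between the genotypes under C was 1, and no other count moved by over 1.5 times. The labels give no litter, batch or day that a number would mark. Same-numbered arrays had correlated deviations (r between 0.02 and 0.24), over 0.1 in 11 of 28 pairs and in every pair of 0 of 7 comparisons, and in 24 of the 28 pairs this r was above those with other numbers. In the exact sign-flip test of same-numbered pairs, p cannot go below 0.125, so that 0 of the paralogue ratios have a p under 0.05, against 17 without pairing. Leaving out 1 array at a time, RPSAb under D, not called, ran from -0.035 (without gnat2 D replicate 3) to 0.13 in gnat2 and from -0.072 (without WT C replicate 4) to 0.33 in WT. RPL10C under D in gnat2 ran from -0.015 (without gnat2 C replicate 1) to 0.12. The causes were not tested. Promoter motifs were not run, since no promoter sequences were used here.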
